A study of Mus musculus with 29 samples.

Results

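The 7 genes described here encode 4 deubiquitinases of histone H2A and the cofactors of one of them. They are Bap1, its cofactors Asxl1, Asxl2 and Asxl3, and the enzymes Usp16, Usp21 and Mysm1. They were chosen by name, and all 7 were found by symbol among 20558 protein-coding genes placed on chromosomes 1 to 19 of mm10. For each gene the H2Aub types of every segment over the gene body and the 100 kb on each side were taken from 1 genome segmentation that the authors deposited. H2Aub is histone H2A carrying a single ubiquitin, at lysine 119 by the title of the series. The study profiled it, together with H3K27me3, by CUT&RUN, in which an antibody-tethered nuclease releases DNA around a mark, in 29 mouse libraries of 16 groups.

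H2Aub libraries from unmanipulated stages came from germinal vesicle oocytes (Eed fl/fl, B6/129 mixed), metaphase II oocytes (WT, B6/DBA), and zygotes, inner cell mass and E6.5 epiblast (WT x WT, B6/DBA x PWK). Embryos of the 4-cell and morula stages were Eed fl/fl x WT on B6/129 mixed x PWK, and the 2-cell libraries held both kinds of cross. H2Aub was also measured in Gdf9-Eed fl/fl germinal vesicle oocytes on B6/129. After a cross to WT it was measured in 4-cell embryos and morulae without maternal Eed, on B6/129 x PWK. In lines named in this way the Gdf9 promoter drives recombination in growing oocytes. Control and overexpression groups for PR-DUB were 4-cell embryos of WT x WT crosses on B6/DBA x PWK, with H2Aub and H3K27me3 libraries in each. H3K27me3 was further measured in WT germinal vesicle oocytes on B6/DBA. Libraries with a stated number held 1 to 300 oocytes or embryos. The segmentation had no column for any of these groups, so no stage, genotype or PR-DUB comparison could be made, no value below has a replicate, and the read depth behind the types is unknown. The types run from 1 to 5 without a key. They are categories named only by number, and nothing in the table says which of them carries more H2Aub.

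Polycomb repressive complex 1 places ubiquitin on H2A through its Ring1 and Rnf2 subunits, and deubiquitinases remove it. In PR-DUB, the Polycomb repressive deubiquitinase, Bap1 is a cysteine protease of the UCH family that is active on nucleosomes only with an Asxl partner, whose DEUBAD domain stimulates it. Usp16 and Usp21 are cysteine proteases of the USP family, Usp16 being known for its role in mitosis and in gene activation. Mysm1 is a metalloprotease of the JAMM family known for its role in blood formation. PR-DUB is also the complex that the labels name for the overexpression in 4-cell embryos, without saying which subunits were expressed.

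Each gene took the type with the largest share of its body. Most of the 7 took type 1, and none took type 2, 4 or 5. Asxl1, Asxl2, Usp16 and Mysm1 were type 1 over 100% of the body. Asxl3 was type 1 over 48.3% of its body, the largest of its shares. Bap1 and Usp21 were type 3 over 100% of the body. Thus 5 of the 7 genes took type 1, the type of 37.2% of all protein-coding genes, and 2 took type 3, the type of 33.8%. Types 2, 4 and 5, which took 5.44%, 14.0% and 9.53% of protein-coding genes, held no member. With 7 genes chosen by name these counts are a description and were not tested. The whole body lay in 1 type for 6 of the 7 genes, against 68.7% of protein-coding genes. Asxl3 had 3 types over its body, which 6.88% of protein-coding genes had.

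**Figure D1:**
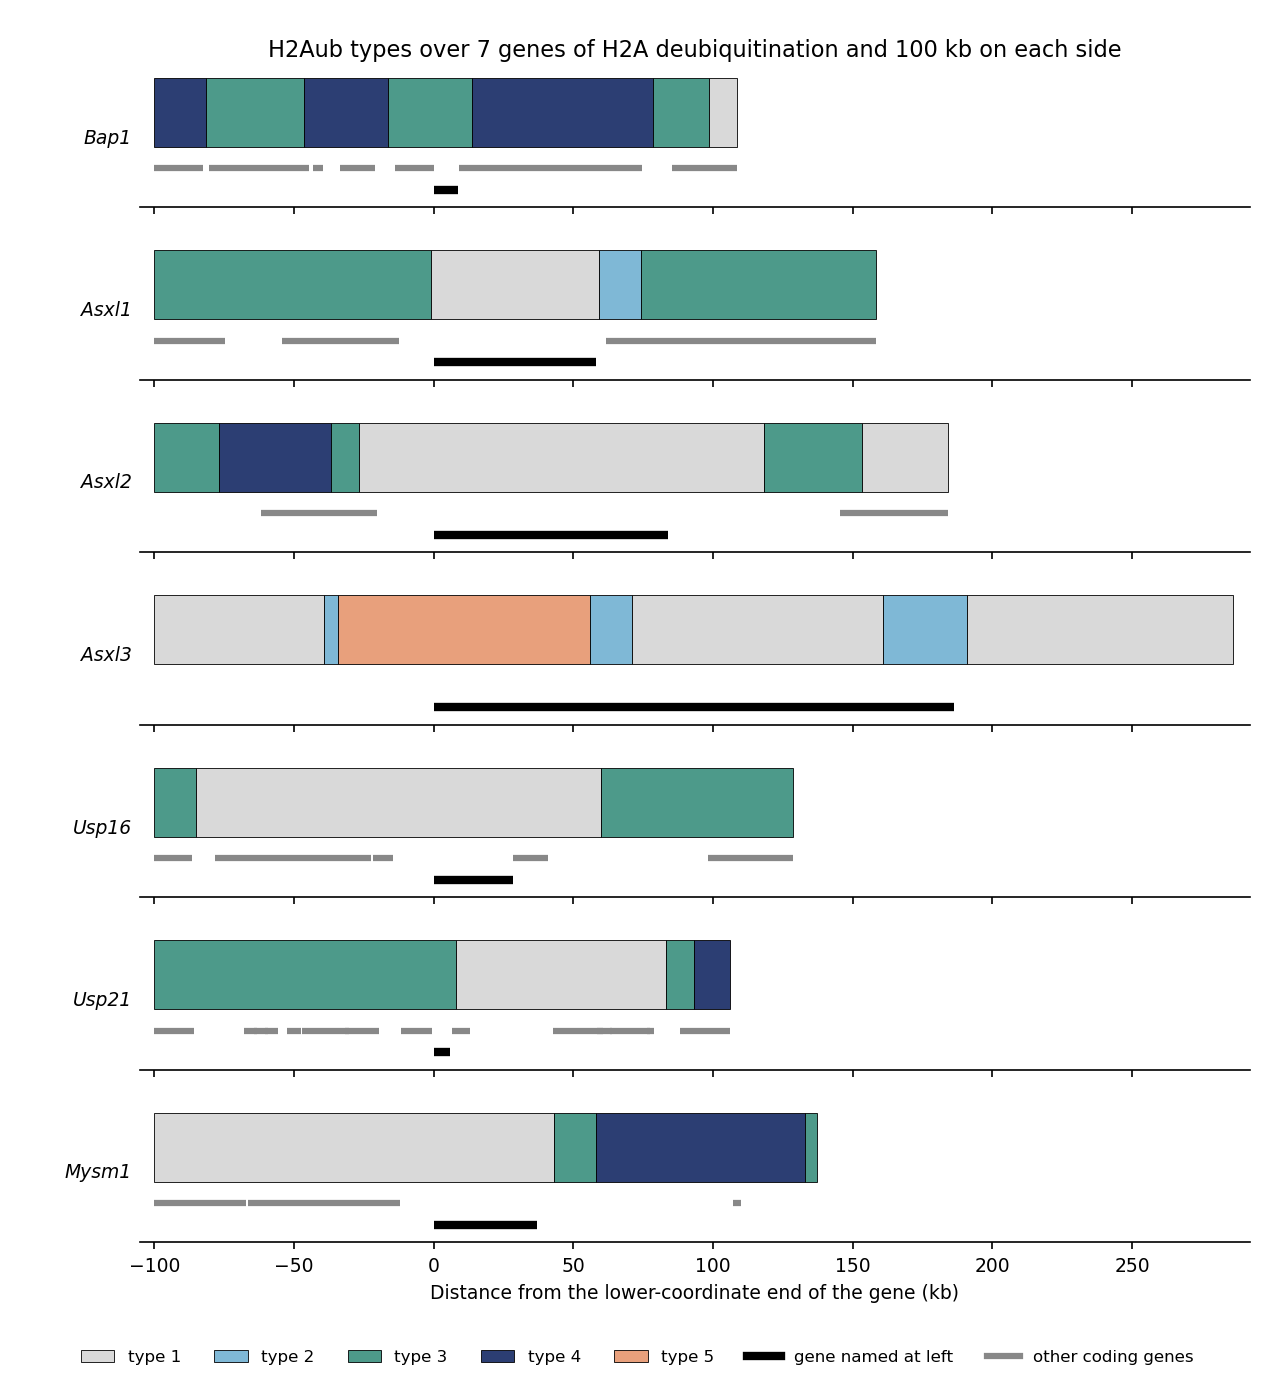
Segments over each gene and 100 kb on each side, with the distance from the lower-coordinate end of the gene in kb on the horizontal axis. Colours give the H2Aub type, black bars the named gene and grey bars other protein-coding genes. Asxl1 and its type 1 segment have nearly the same ends, Bap1 sits in a 30 kb type 3 segment between type 4 segments, and Asxl3 is the gene that type 5 enters.

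The start sites of 6 of the genes could be placed with RefSeq promoter sequences of GRCm38.p6, the build of mm10, and each of the 6 had its start site in the type of its body. Sequences before the start site are shown for 4 of them because they span the range of CpG density among the genes and hold both start sites closest to a border of types, those of Asxl1 and Usp21. Sequences run 5′ to 3′ toward the start site, capitals mark each CpG (CG, which reads the same on both strands), and bases inside another coding gene or another coding transcript of the same gene were left out, which shortens that of Bap1. The start site of Bap1 is that of its coding transcript (31251489), inside the gene record.

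Bap1 (chr14:31251345-31251488, + strand): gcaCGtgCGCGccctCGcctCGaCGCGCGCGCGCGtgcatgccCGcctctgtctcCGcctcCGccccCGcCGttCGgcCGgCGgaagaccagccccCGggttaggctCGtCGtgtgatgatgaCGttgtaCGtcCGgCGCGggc
Asxl1 (chr2:153345580-153345829, + strand): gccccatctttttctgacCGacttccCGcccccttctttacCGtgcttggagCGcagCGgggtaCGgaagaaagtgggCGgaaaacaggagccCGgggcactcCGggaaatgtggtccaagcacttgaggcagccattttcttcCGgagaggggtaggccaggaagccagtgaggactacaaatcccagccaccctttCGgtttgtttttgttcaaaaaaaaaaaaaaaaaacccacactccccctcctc
Asxl2 (chr12:3426607-3426856, + strand): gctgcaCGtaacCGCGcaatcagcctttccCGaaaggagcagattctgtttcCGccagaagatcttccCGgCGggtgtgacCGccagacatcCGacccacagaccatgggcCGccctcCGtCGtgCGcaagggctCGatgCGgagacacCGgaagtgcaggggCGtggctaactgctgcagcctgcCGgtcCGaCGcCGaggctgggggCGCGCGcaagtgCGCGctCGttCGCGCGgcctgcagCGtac
Usp21 (chr1:171287962-171288211, - strand): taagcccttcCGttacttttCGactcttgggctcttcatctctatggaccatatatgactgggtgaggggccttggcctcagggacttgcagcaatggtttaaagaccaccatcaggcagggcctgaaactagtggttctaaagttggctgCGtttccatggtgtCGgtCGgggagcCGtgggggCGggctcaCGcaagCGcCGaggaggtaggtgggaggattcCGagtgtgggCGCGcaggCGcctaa

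Over the 300 bases from 250 before to 50 after the start site, Bap1 had 50 CpG, more than 98.9% of 20085 promoters of protein-coding genes. These promoters belonged to 16457 of the 20558 protein-coding genes, so some genes counted more than once and others not at all. The count for Bap1 includes bases of the neighbouring gene Phf7, which the Bap1 sequence above, with 27 CpG in 144 bases, leaves out. Asxl2 followed with 36 CpG (more than 91.5% of promoters) and Mysm1 with 25 (more than 74.3%). Usp21 had 18, Usp16 17 and Asxl1 13, against a median of 14 over all promoters, of which 95.6% held at least 1 CpG. Bap1 and Asxl2, the sequences above with capitals along most of their length, were thus in different types, 3 and 1. Asxl1, whose capitals stop short of a run of a before the start site, shared type 1 with Asxl2. Over all promoters the median was 15 CpG with the start site in type 1 and 17 with it in type 3. Type 4 had a lower median of 11, type 2 one of 6 and type 5 one of 2. The members in type 1 ranged from 13 to 36 and those in type 3 from 18 to 50, so the CpG counts of both types overlapped among these genes. Promoters of Asxl3 were not analysed here.

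**Figure D2:**
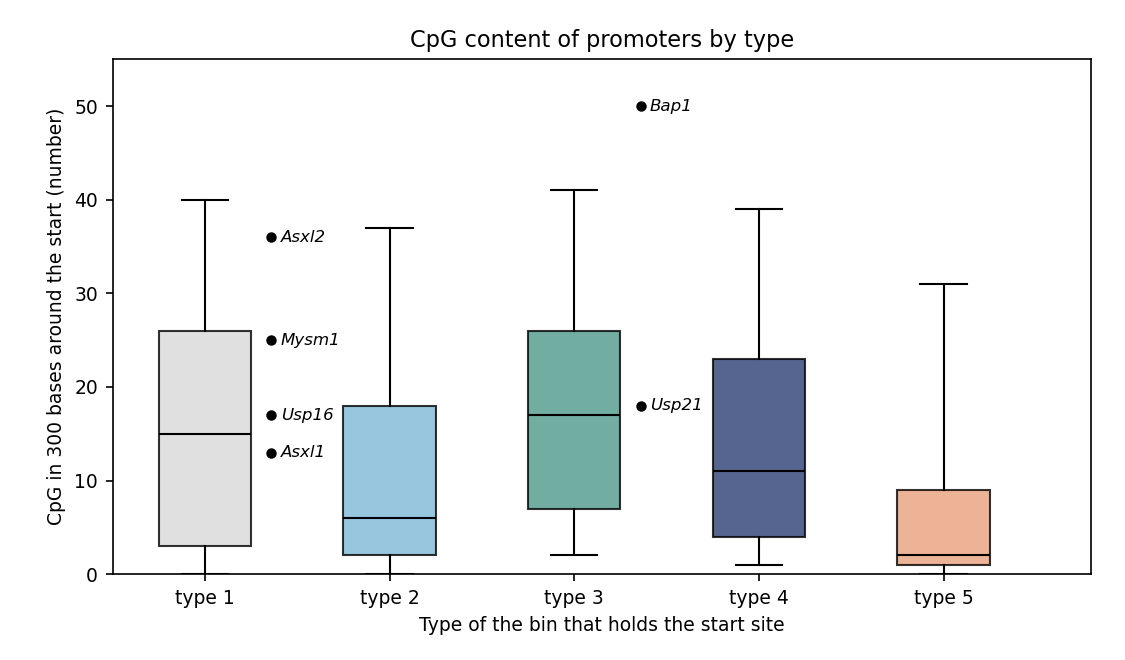
CpG in the 300 bases around the start site (vertical axis, number) by the type of the bin holding that site. Boxes give the quartiles and median over 20085 promoters of 16457 protein-coding genes and whiskers the 5th to 95th percentiles. Points are the 6 genes with a promoter sequence. Bap1 lies above the upper whisker of type 3, and the other 5 lie within the whiskers of their type.

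Bap1, the catalytic subunit of PR-DUB (chr14:31251352-31259930), had a body of 8.58 kb and lay in a type 3 segment of 30 kb. The segment was flanked by type 4 on both sides, at 16.4 kb from the lower gene end and 5.07 kb from the higher. Over the whole window type 4 took 54.5%, type 3 40.8% and type 1 4.76%. Bap1 was thus the member with the most type 4 around it, yet no base of its body was type 4. The type 3 segment also held Phf7, a PHD finger gene of sperm formation, which ends 0.007 kb before Bap1 and was type 3 over its whole body. On the other side Dnah1, an axonemal dynein gene that begins 0.444 kb after Bap1, was 92.9% type 4. The type 4 segment of 30 kb below held Tnnc1, the cardiac troponin C gene, and Sema3g, a secreted semaphorin gene, both wholly. Stab1, a scavenger receptor gene, was also wholly type 4. Nisch, between them, was 94.9% type 3, and Capn7 at the far end was 56.6% type 1. The window was cut into 7 segments, or 2.88 borders per 100 kb, and 90.1% of protein-coding genes had fewer borders per 100 kb.

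Asxl1 (chr2:153345830-153404007) filled a type 1 segment of 60 kb almost from end to end. Its 58.2 kb body took 96.96% of the segment, with 0.829 kb left below its start and 0.993 kb left above its end, both less than the 5 kb bin of the segmentation. Below lay a type 3 segment of 135 kb with Kif3b, a kinesin motor gene, and Pofut1, a Notch-modifying enzyme gene, each wholly type 3. Above lay 15 kb of type 2 and then 120 kb of type 3, and Nol4l, which begins 3.45 kb after Asxl1, was 89.8% type 3 and 10.2% type 2. Type 3 took 71.0% of the window, type 1 23.2% and type 2 5.81%. In this window Asxl1 was the gene in type 1, and its 3 coding neighbours were in type 3.

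Asxl2 (chr12:3426857-3510811) lay inside a wider type 1 segment of 145 kb, with borders 26.9 kb below and 34.2 kb above its 84.0 kb body. A type 3 segment of 10 kb and a type 4 segment of 40 kb followed below. Kif3c, another kinesin motor gene, spanned them and was 60.1% type 4, 24.2% type 3 and 15.7% type 1. Above, a type 3 segment of 35 kb and a type 1 segment of 130 kb followed, and Dtnb, the beta-dystrobrevin gene, was 61.0% type 1 and 39.0% type 3. Type 1 took 61.9% of the window, type 3 24.0% and type 4 14.1%. Asxl1 and Asxl2 were alike in having the whole body in type 1 and differed in how far that type reached past the gene.

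Asxl3 (chr18:22344077-22530227), the third cofactor gene and the longest of the 7 at 186 kb, changed type along its body. From its lower end 55.9 kb (30.0% of the body) were type 5, in a segment of 90 kb that began 34.1 kb before the gene. Next came 15 kb of type 2, 90 kb of type 1 (48.3%) and 25.2 kb of type 2 that ended 4.77 kb past the higher gene end. Beyond the gene type 1 continued on both sides, over 265 kb below after 5 kb of type 2, and over 140 kb above. Asxl3 was the member with type 5 in its window, a type found in 25.6% of all windows, and the one without type 3, which 82.1% of windows held. It had no protein-coding neighbour within 100 kb. The nearest, Nol4, began 163 kb above it and was 67.2% type 1. The nearest type 3 lay 689 kb from Asxl3 and the nearest type 4 505 kb, whereas for the other 6 genes type 3 was at most 31.5 kb away.

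Usp16 (chr16:87454985-87483515) had the least divided window, with 3 segments. A type 1 segment of 145 kb covered its 28.5 kb body, 84.98 kb below it and 31.5 kb above it, with type 3 on either side. In the same type 1 segment lay Ltn1, a ubiquitin ligase gene of ribosome quality control, Rwdd2b, and Cct8, a chaperonin subunit gene whose record overlaps the end of Usp16 by 191 bases. N6amt1, a methyltransferase gene, and Map3k7cl were wholly type 3. Type 1 took 63.4% of the window and type 3 36.6%.

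Usp21 (chr1:171281949-171287961), the shortest of the genes at 6.01 kb, lay at the edge of its segment. It is transcribed from its higher end, and its start site was 2.04 kb from the end of a 115 kb type 3 segment, less than 1 bin. Past that border came 75 kb of type 1, 10 kb of type 3 and 20 kb of type 4. The 9 coding neighbours on the lower side were all type 3, from Ppox, a heme synthesis gene 0.755 kb away, to Pcp4l1 (92.4% type 3), and 8 of them wholly. Among them was the liver apolipoprotein gene Apoa2. On the higher side Ufc1, the conjugating enzyme gene of the ubiquitin-like protein Ufm1, lay 0.602 kb away and was 77.7% type 1 and 22.3% type 3. Dedd, Nit1, Pfdn2 and Klhdc9 were wholly type 1, and Nectin4, an adhesion gene, was 73.3% type 4. Type 3 took 57.3% of the window, type 1 36.4% and type 4 6.29%.

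Mysm1 (chr4:94942037-94979155) lay in the longest type 1 segment that held a member, 235 kb. The 37.1 kb gene is transcribed from its higher end, and that end was 5.85 kb from the border of the segment, with type 1 over all of the 100 kb on the other side. Across the border 15 kb of type 3 led into a 75 kb type 4 segment. Jun, the AP-1 transcription factor gene 69.9 kb from Mysm1, lay wholly in that type 4 segment and was the one coding gene on that side. Below, the acrosome gene Eqtn was wholly type 1 and Tek, the angiopoietin receptor gene, was 92.0% type 1. Type 1 took 60.3% of the window, type 4 31.6% and type 3 8.08%.

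Over all 7 windows, 1809 kb in all, type 1 took 47.3%, type 3 30.8%, type 4 13.4%, type 5 4.98% and type 2 3.59%. With every gene weighing the same, the mean share of the window was 44.8% type 1 for these genes and 34.5% for protein-coding genes. Type 3 had means of 33.9% and 34.9%, and type 4 of 15.2% and 14.8%. Type 5 was at 3.33% and 10.05%, and type 2 at 2.68% and 5.87%. The larger share of type 1 lay in the bodies, at a mean of 64.0% against 36.3%. In the flanks it was 39.8% against 33.7%. Type 4 was absent from the bodies of these genes (mean over protein-coding genes 14.0%), and its mean share of their flanks was 17.3% (14.9%). That mean rested on Bap1 and was 10.7% without it, and the flanks of Asxl1, Asxl3 and Usp16 held no type 4. It was present in the windows of Bap1, Asxl2, Usp21 and Mysm1, 4 of 7, against 48.0% of all windows, and type 2 in those of Asxl1 and Asxl3, 2 of 7, against 35.6%.

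**Figure D3:**
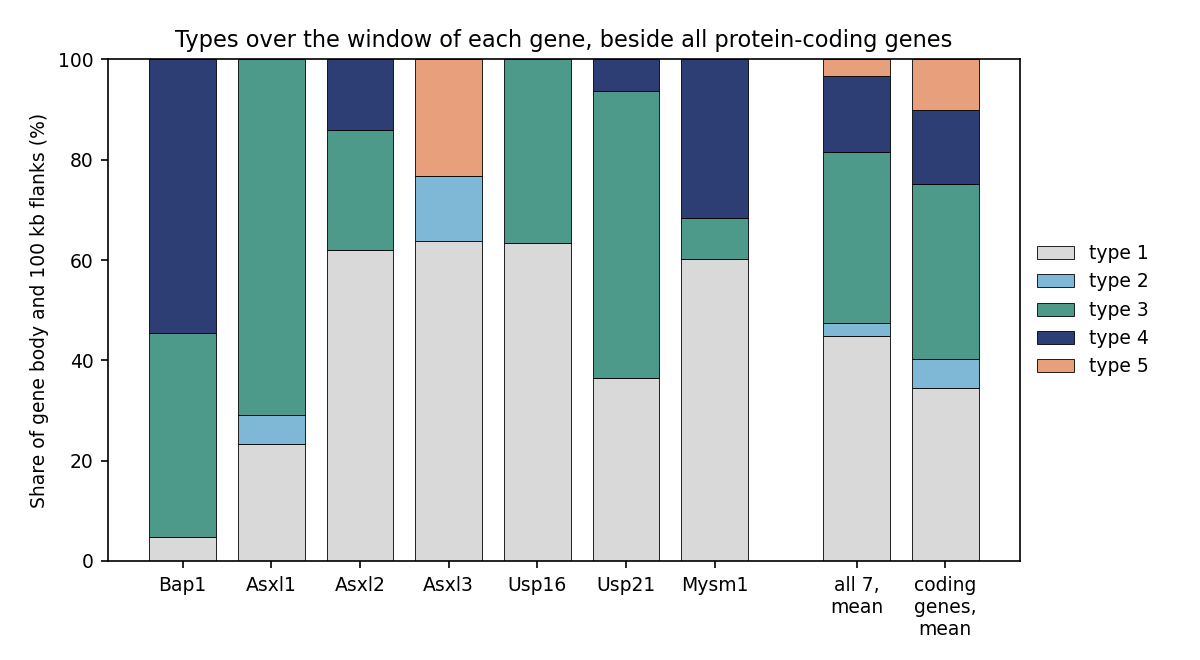
Share of gene body and 100 kb flanks (vertical axis, %) in each H2Aub type for the 7 genes, for their mean and for the mean over all protein-coding genes. Type 1 ranges from 4.76% around Bap1 to 63.7% around Asxl3, and type 5 appears around Asxl3 alone among the 7.

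Windows of the 7 genes held 3 to 7 segments of 2 or 3 types. None lay in 1 type throughout, as 8.81% of the windows of protein-coding genes did, and all 7 held some type 1, which 78.8% of windows did. The median was 1.46 borders per 100 kb, and over protein-coding genes it was 1.48 with quartiles of 0.930 and 2.21. Usp16 had the fewest at 0.875, and Asxl1 (1.16), Mysm1 (1.27), Usp21, Asxl3 (1.55) and Asxl2 (1.76) lay between the quartiles. Bap1, at 2.88, was the member above the upper quartile.

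**Figure D4:**
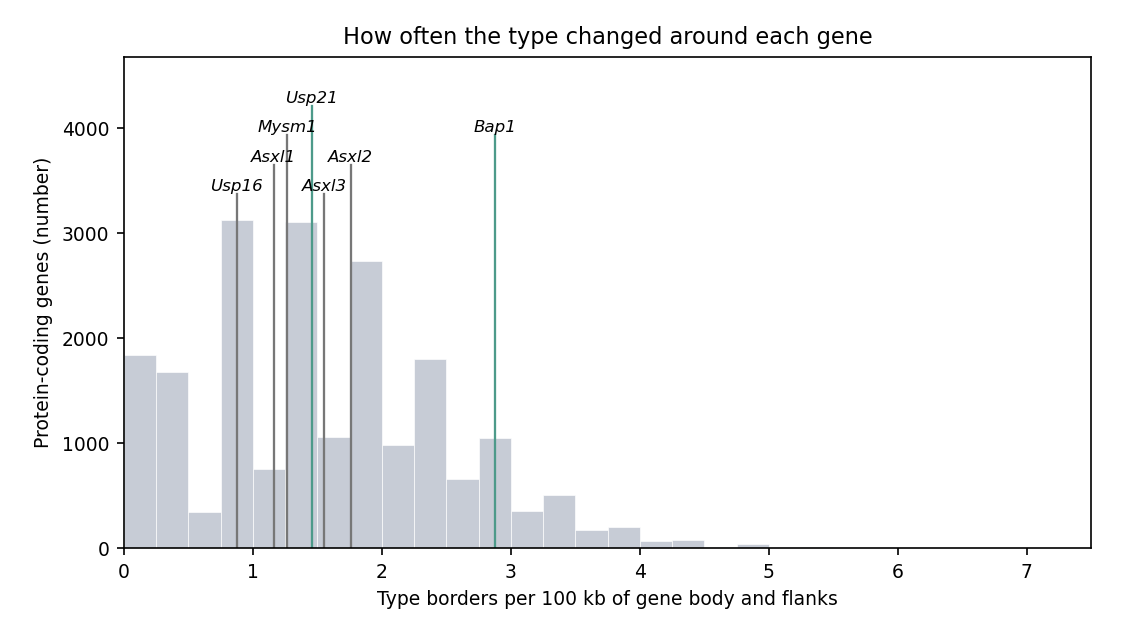
Distribution of type borders per 100 kb of gene body and flanks (horizontal axis) over protein-coding genes (vertical axis, number), with the 7 genes as lines. Bap1 stands to the right of the other 6, which lie between 0.875 and 1.76 borders per 100 kb.

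The 35 protein-coding neighbours with part of their body in these windows were in type 3 (16), type 1 (12) and type 4 (7), which is 45.7%, 34.3% and 20.0%, against 33.8%, 37.2% and 14.0% of protein-coding genes, and none was in types 2 or 5. Usp21 alone had 15 of the 35 neighbours and 9 of the 16 in type 3. Neighbours share segments with each other and with the member, so these are not independent counts.

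Likeness between genes was measured as the overlap of their type shares, averaged over lower flank, body and higher flank, where 100% means equal shares in all 3. Flanks were paired by coordinate and not by direction of transcription. Usp21 and Mysm1 are transcribed from their higher end. Their likeness to genes on the other strand, and so the ranks below, could differ with flanks paired by direction, which was not done. Where a gene was compared with all others, the coding neighbours in its own window were left out, since they share its segments. Among the 7 genes the most alike were Usp16 and Mysm1 (70.0%), followed by Asxl2 and Usp16 (69.5%) and by Bap1 and Usp21 (62.1%). The Asxl genes were less alike, at 56.7% for Asxl1 and Asxl2, 46.7% for Asxl2 and Asxl3 and 18.3% for Asxl1 and Asxl3. Bap1 shared 25.8% with Asxl1, 36.05% with Asxl2 and 3.31% with Asxl3. Over protein-coding genes outside the window the median likeness was 35.2% to Bap1, 37.0% to Asxl1, 39.8% to Asxl2 and 27.8% to Asxl3, so Bap1 was below its own median with Asxl1 and Asxl3 and just above it with Asxl2.

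Outside each gene's own window, the genes most like Bap1 were Ifitm3 (96.2%) and Ifitm6 (95.6%), neighbouring antiviral transmembrane genes, and Tspan17 (95.2%). The genes most like Asxl1 were Farsb (97.3%), Bach1 (96.8%) and Pwp2 (95.4%), and those most like Asxl2 were Patl1 (95%), Zfp952 (92.7%) and Trmt10b (92.3%). For Usp16 they were Fancd2os (98.9%), Wdr20 (98.8%) and Slc7a6 (98.4%). For Usp21 they were the cyclin gene Ccnd3 (98.9%) and the neighbours Ctf1 and Ctf2 (95.7% each), and for Mysm1 the neighbours Sft2d3 (99.0%) and Wdr33 (97.996%), and Leap2 (97.7%). No gene reached 90% for Asxl3. The closest were Cdh18 (87.8%), a cadherin gene, Gulp1 (86.5%) and Kcnn2 (86.3%), a potassium channel gene. Again without the window neighbours, at least 90% likeness was reached by 329 genes for Usp16, 167 for Usp21, 82 for Asxl1, 40 for Mysm1, 34 for Bap1 and 16 for Asxl2.

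Genes that work with or beside these enzymes were counted in the same way. Of the PR-DUB partner genes on the segmented chromosomes, the forkhead genes Foxk1 (69.4%) and Foxk2 (99.97%) and the methyl-binding domain genes Mbd5 and Mbd6 (100% each) were type 1, and Kdm1b, a histone demethylase gene, was 87.4% type 3. That made 4 of 5 in type 1. Over all protein-coding genes 37.2% took type 1, 33.8% type 3 and 5.44% type 2, the background for each list here. Of 8 other deubiquitinases of H2A or H2B, Usp3, Usp7, Usp22, Usp46 and Usp49 took type 1 and Usp12, Usp36 and Usp44 took type 3. Of 8 genes listed by name as possible readers of H2Aub, 5 took type 1 and 3 type 3. Jarid2 and Aebp2, cofactors of Polycomb repressive complex 2, were wholly type 1, and the DNA methyltransferase genes were type 3, Dnmt3a over 100% and Dnmt1 over 75.7%. Of 13 genes for writers of the mark, 6 took type 1, 6 type 3 and 1, Auts2, type 2 over 53.8% of its 1106 kb. The paired catalytic subunits Ring1 and Rnf2 were in different types, Ring1 wholly in type 3 and Rnf2 wholly in type 1. None of the genes in these 4 lists took type 4 or 5, the types of 14.0% and 9.53% of protein-coding genes.

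Types 4 and 5 did hold other genes of the USP, UCH and JAMM families, which were listed by name or family and not by enzyme activity. Of 42 other genes named Usp and a number, 24 took type 1 (57.1%), 10 type 3 (23.8%), 3 type 4 (7.14%), 3 type 5 (7.14%) and 2 type 2 (4.76%). Over all protein-coding genes these types took 37.2%, 33.8%, 14.0%, 9.53% and 5.44%, which is the background for the UCH and JAMM lists too. Those outside types 1 and 3 were Usp13 (48.2%), Usp18 (100%) and Usp29 (59.2%) in type 4. Usp25 and Usp38 (100% each) and Usp53 (84.1%) took type 5, and Usp28 (100%) and Usp31 (96.2%) took type 2. Usp13 was nearly tied, with 47.7% of its body in type 2. By the middle bin of the body this list had 2 genes in type 4 and 11 in type 3. Of the other UCH family genes, Uchl4 and Uchl5 were wholly type 1, Uchl1 wholly type 3 and Uchl3 wholly type 5. Of 10 other JAMM family genes, 5 took type 1 and 2 type 3. Eif3f (100%) and Stambpl1 (60.7%) took type 4, and the proteasome gene Psmd14 was wholly type 5. The 42 Usp genes include the 8 of the list of other H2A or H2B enzymes, and Rybp and Yaf2 stand among both writers and readers. Names on the X chromosome, such as Ogt, Hcfc1, Brcc3 and Bcor, were not analysed here.

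**Figure D5:**
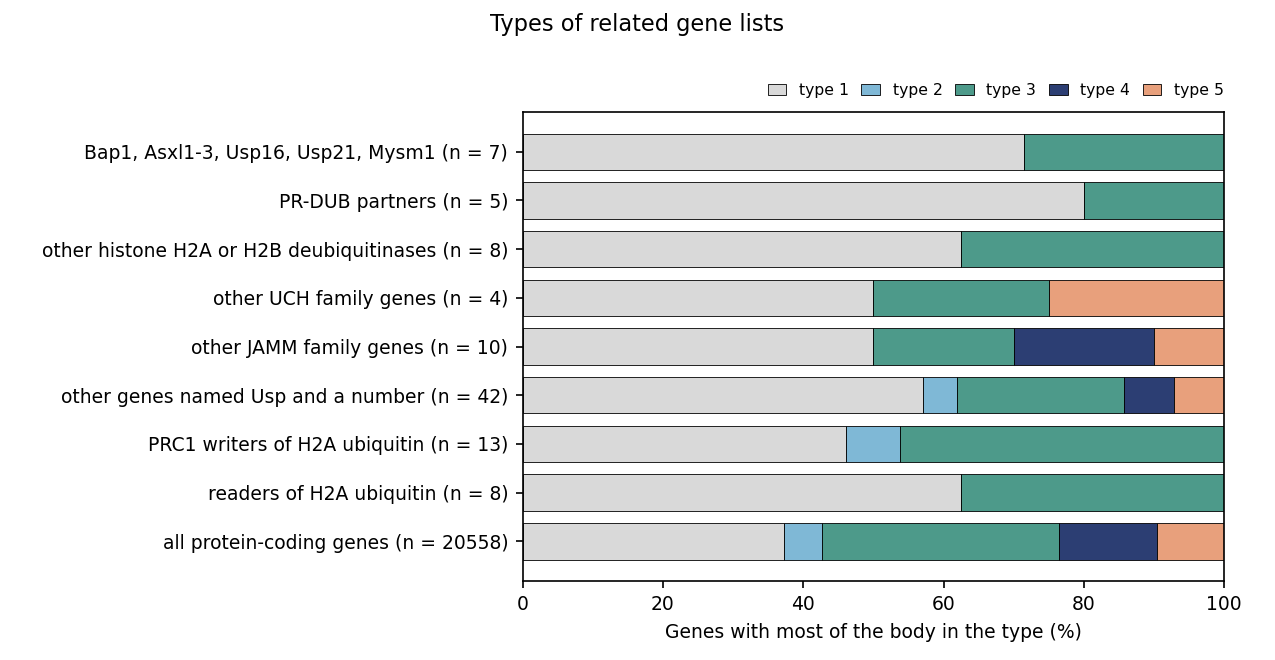
Share of genes (horizontal axis, %) by the H2Aub type with the largest share of the body. Bars are the 7 genes, the 7 related lists and all protein-coding genes, with the number of genes in brackets. By that largest share, the 7 genes, the PR-DUB partners, the other H2A or H2B deubiquitinases and the readers took types 1 and 3 alone. Smaller shares of a body can be of other types, as in Asxl3.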

How the data were processed

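The submitters' processing notes name the tools deepTools 3.0.2, Picard 2.8.0, Bowtie2 2.3.4.3 and Trim Galore 0.4.5, and the build mm10. The authors deposited a ChromHMM segmentation, a hidden Markov model's division of the genome. Its only value is the label of a type, 1 to 5, which is a category and neither a signal nor a score. How the segmentation was run, on which libraries, and what each type stands for is not given in the sources used here.

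Segment ends were multiples of 5 kb, taken as the bin. In 261 of 492539 bins segments overlapped and the shorter was used. No such bin lay in the windows of the 7 genes. Genes came from RefSeq GRCm38.p6 by symbol, then synonym (Usp16 is also listed as a synonym of Usp21). The table's 333 genes counted from scaffold starts were left out. Each gene took the type with the largest share of its body. Distances, shares and likeness were computed with Python 3.11.15, numpy 2.4.6 and pandas 2.3.3, checked on simulated segments. No test was made. The text names the 7 genes, coding neighbours of theirs (some are not reported here), list genes outside types 1 and 3 and the 3 genes most like each. Other list genes are named as examples, chosen after their values were seen. The 7 genes and the lists were chosen with earlier results of these data known.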

Additional observations from a re-analysis of the deposited data

How the results depend on the processing

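The bodies of 6 of the 7 genes lay in 1 type throughout, and no window held overlapping segments. The longer segment in overlaps and the bin at the middle, either end or start site could not change the type of these 6. Widening the body by 5 kb on each side brought in a type not in the body only for Asxl1 and Usp21. All 7 kept their type, and the positions of the borders left no room for another outcome. Asxl3 turned from type 1 to type 5 by the bin at its lower end and to type 2 by the bin at its higher end, so the number of genes in type 5 and in type 2 went from 0 to 1 under those settings. With flanks of 50 kb, type 1 took 54.3% of the windows, type 3 21.1% and type 5 8.12% (47.3%, 30.8% and 4.98% with 100 kb). Without Asxl3, an alternative chosen after seeing the data, type 2 took 1.05%, type 3 39.2% and type 5 0% (3.59%, 30.8% and 4.98% with it). Without Bap1, also chosen after seeing the data, type 1 took 52.8% and type 4 7.998% (47.3% and 13.4% with it). With flanks of 200 kb the window of Usp16 had 4 types in place of 2, and segments went from 7 to 12 for Bap1, 4 to 10 for Usp21, 4 to 9 for Asxl1 and for Mysm1, and 3 to 6 for Usp16. With flanks of 50 kb they went to 4 for Bap1 and 2 for Usp21, and counting only segments of at least 25 kb to 2 for Usp21. List counts by the middle bin stayed within 1.5 times in all 7 lists. Over all annotated genes 33.0% took type 1 and 12.8% type 5. No paired analysis was possible because the segmentation has no value per library and no result comes from a test. Depth limits are unknown, since the types carry no counts, and a border is placed to 5 kb at best.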

Other observations

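The near match of Asxl1 with a single segment is uncommon in these data. Of 14117 protein-coding genes lying wholly in 1 segment, 11, Asxl1 included, filled at least 96.96% of it, and the median gene filled 9.202%. Of 1282 such genes at least as long as Asxl1, 7 did so: Asxl1, Faf1, Rnf216, Mpp6 and Kpna3 in type 1, Ptger3 in type 3 and Cacna1a in type 4. This property was looked at after the values of Asxl1 were seen, and with bins of 5 kb the ends could lie anywhere within a bin.

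The Asxl genes have related neighbours in different types, also noted after the values were seen. The kinesin genes Kif3b and Kif3c lie 12.4 kb below Asxl1 and 20.4 kb below Asxl2, and were wholly type 3 and 60.1% type 4. Nol4l, 3.45 kb above Asxl1, was 89.8% type 3, and Nol4, 163 kb above Asxl3, was 67.2% type 1. The dystrobrevin genes Dtnb, 61.6 kb above Asxl2, and Dtna, 780 kb above Asxl3, were 61.0% type 1 and 78.6% type 5.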
